A study of Capra hircus with 6 samples.

Results

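Knockdown of the chaperone gene HSPA8 in a goat cell line was compared with a control hairpin across all genes that carried values, and each change was then checked against the levels in a second knockdown line, against UCHL1. The comparison set 2 libraries of the line shHSPA8 against 2 of the line shCON, and all 6 libraries of the study entered the fit that estimated the spread. The 2 shUCHL1 libraries also served to show which changes stood apart in shHSPA8. Of the 16599 genes with values, 12665 had enough counts to be tested. All 3 lines derive from mGSCs-I-SB, a line from goat (Capra hircus) whose cell type is given as spermatogonial stem cells. Cells of every line grew in DMEM/F12 medium with 10% fetal bovine serum and antibiotics. shCON carries a control short hairpin RNA, shUCHL1 a hairpin RNA against UCHL1 and shHSPA8 a hairpin RNA against HSPA8. The labels give the genotype of shCON as WT, that of shUCHL1 as UCHL1 knockdown and that of shHSPA8 as HSPA8 knockdown. They name no hairpin sequence and do not state how many hairpins or clones stand behind a line. Nothing in them states whether a line's 2 libraries are separate cultures. All p-values therefore rest on the spread between the deposited libraries alone, which may be only technical.

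HSPA8 (also called HSC70) is the HSP70 chaperone that cells make constitutively in the cytosol. With J-domain co-chaperones and nucleotide exchange factors it folds new proteins, strips clathrin from coated vesicles and carries proteins with a targeting motif to LAMP2A on lysosomes, the route called chaperone-mediated autophagy. UCHL1 is a deubiquitinating enzyme and a long-used marker of undifferentiated spermatogonia. The series title sets UCHL1 against HSPA8 in the upkeep of the microenvironment of male germline stem cells, which in the testis is fed by growth factors, cytokines and matrix from somatic cells.

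The libraries held 15710529 to 16417262 counts each. Levels below are CPM, the usual scaling of counts to library size, with TMM factors that correct for composition. The 10 most abundant genes took 6.50% to 8.03% of the counts, and TMM factors ran from 0.966 to 1.04. The 2 libraries of a line differed beyond sampling noise in all 3 lines, with a chi-square per degree of freedom of 22.7 in shCON, 12.1 in shHSPA8 and 2.39 in shUCHL1. Some defining markers of the labelled cell type were sparse: DDX4, the germ cell RNA helicase, lay between 0.428 and 1.95 CPM over the 6 libraries. GFRA1, the GDNF receptor, lay between 0.180 and 1.08 CPM. ID4 lay between 1.96 and 10.2 CPM, and DAZL and ZBTB16 carried no values under these symbols. Other markers were not sparse: UCHL1 had the higher levels given below. The 27 listed spermatogonial markers with values summed to 4834 to 5832 CPM in shCON. ACTA2, smooth muscle actin, lay between 534 and 1805 CPM and DCN, the fibroblast proteoglycan decorin, between 434 and 947 CPM. These markers did not settle the cell type, so the cells are called by the name of the line and not by a germ cell type.

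HSPA8 transcript was lower in the HSPA8 knockdown line, which fits its label. Its level was 4016 and 4112 CPM in shCON, 5252 and 5345 in shUCHL1 and 2631 and 2528 in shHSPA8. The 2 shHSPA8 libraries lay below all 4 others, at 63.5% of the shCON mean. The log2 fold change was -0.66 (SE 0.07) against shCON and -1.04 (SE 0.07) against shUCHL1 (Benjamini-Hochberg adjusted p = 0.00126 and 0.000415, quasi-likelihood test of edgeR). HSPA8 was itself higher in shUCHL1 than in shCON, by 0.38 on the log2 scale. The authors' deposited table gives a log2 ratio of -0.666 with p = 7.07e-06 for HSPA8 in shHSPA8 over shCON. UCHL1 was at 405 and 451 CPM in shCON, 94.3 and 97.7 in shUCHL1 and 386 and 334 in shHSPA8, and its difference between shHSPA8 and shCON did not pass the test (log2 fold change -0.25, SE 0.10, edgeR adjusted p = 0.151). With an offset for transcript length UCHL1 was called lower in shHSPA8 (log2 fold change -0.28, edgeR adjusted p = 0.0185), as in a fit with a replicate block in which the shHSPA8 numbers were crossed (-0.25, edgeR adjusted p = 0.0147), which was added after seeing the data. In its own knockdown line UCHL1 was at 22.4% of the shCON mean. Reads shared among near-identical HSP70 genes could have been assigned in a way that is not recorded, which makes the level of each HSP70 gene uncertain.

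More genes were higher than lower in shHSPA8. Genes with an adjusted p under 0.05 in edgeR's quasi-likelihood test are called. Against shCON, 1859 of 12665 genes (14.7%) were called, 1097 higher (8.66%) and 762 lower (6.02%). Of these, 579 rose and 187 fell by at least 2-fold. Against shUCHL1, 1843 genes (14.6%) were called, 1058 higher (8.35%) and 785 lower (6.2%). For shUCHL1 against shCON, the figures were 1987 genes (15.7%), 1082 higher (8.54%) and 905 lower (7.15%). In 51% of all genes both shHSPA8 libraries lay on 1 side of both shCON libraries, and in 30.3% they lay outside the range of all 4 others. The median log2 fold change over all genes was -0.00317 against shCON and -0.0175 against shUCHL1. A fit of the shHSPA8 and shCON libraries alone called 725 genes higher and 379 lower. The spread estimated over all 6 libraries includes the closely matched shUCHL1 pair. Without shHSPA8 replicate 1 the counts were 676 and 270, without shHSPA8 replicate 2 they were 626 and 294, and without either shUCHL1 library they were 726 and 382.

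A gene is said to stand apart where it was called in the same direction against shCON and against shUCHL1, since the comparison with shUCHL1 tests the difference between the 2 knockdown effects. By this rule 680 genes (5.37%) stood apart, 446 higher (3.52%) and 234 lower (1.85%). The higher ones were 40.7% of the genes called higher against shCON and 42.2% of those called higher against shUCHL1. For lower genes the shares were 30.7% and 29.8%. The 2 comparisons share the shHSPA8 libraries, so their overlap was not tested. In all 446 and all 234 both shHSPA8 libraries lay outside the range of the other 4, beside 30.3% of all genes. Lack of overlap in such genes below thus comes with their selection and adds no support. Differences of at least 2-fold in both comparisons were found in 161 higher and 58 lower genes. For 601 of the 1097 genes called higher and for 490 of the 762 called lower the difference from shUCHL1 was not called, and 50 and 38 were called the opposite way against shUCHL1. The count of genes that stood apart depended on the libraries: it was 120 higher and 39 lower without shUCHL1 replicate 1, 131 and 43 without shUCHL1 replicate 2, 221 and 55 without shHSPA8 replicate 1, 233 and 78 without shHSPA8 replicate 2, and 677 and 432 without shCON replicate 2. In total 104 of the 446 and 29 of the 234 stood apart in each of the 6 fits that left out 1 library and in the fits of 2 lines at a time. These genes are called stable below.

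**Figure D1:**
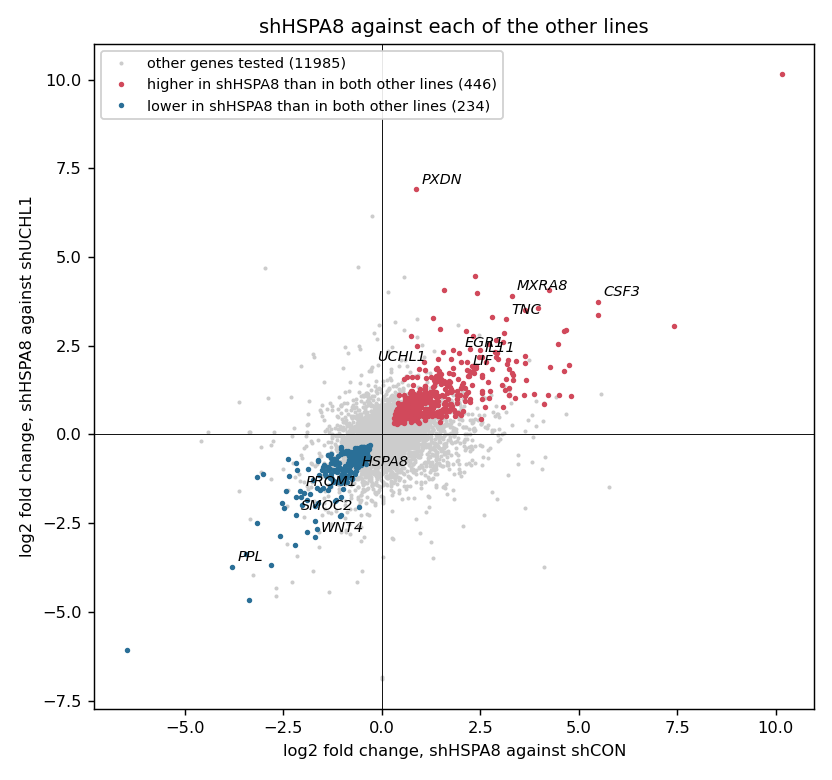
Log2 fold change of each of the 12665 genes in shHSPA8 against shCON (x axis) and against shUCHL1 (y axis), from edgeR; the axes share the shHSPA8 libraries. The 446 genes higher than both other lines are red, the 234 lower than both are blue, and MXRA8, TNC, IL11 and LIF lie far to the upper right while PPL lies far to the lower left; the most extreme points rest on lines with almost no counts.

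The genes that rose furthest above both other lines encode matrix and surface proteins, cytokines and signalling proteins. Tenascin-C (TNC), a matricellular glycoprotein made in development and wounds, was at 64.6 and 63.4 CPM in shCON, 61.6 and 58.3 in shUCHL1 and 557 and 577 in shHSPA8. Its 2 shHSPA8 libraries stood far above the other 4, which lay close together. The log2 fold change was 3.15 (SE 0.09) against shCON and 3.24 (SE 0.09) against shUCHL1 (edgeR adjusted p = 1.51e-05 and 2.07e-05). MXRA8, an adhesion protein of the cell surface, was at 4.43 and 5.94 CPM in shCON, 3.12 and 3.66 in shUCHL1 and 52.3 and 49.8 in shHSPA8. Its log2 fold changes were 3.30 against shCON and 3.91 against shUCHL1 (edgeR adjusted p = 5.5e-05 and 7.69e-05). Osteopontin (SPP1), a secreted ligand of integrins and CD44, was at 63.2 and 61.9 CPM in shCON, 94.8 and 94.01 in shUCHL1 and 401 and 382 in shHSPA8. It differed from shCON by 2.65 and from shUCHL1 by 2.05 on the log2 scale, and shUCHL1 itself was above shCON.

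IL11 and LIF, cytokines of the IL-6 family that signal through gp130, rose together. IL11 was at 31.7 and 41.5 CPM in shCON, 43.6 and 45.7 in shUCHL1 and 216 and 188 in shHSPA8, a log2 fold change of 2.47 (SE 0.15) against shCON and 2.18 (SE 0.15) against shUCHL1. LIF, which sustains pluripotent and germline stem cells in culture, was at 74.6 and 80.7 CPM in shCON, 101 and 98.4 in shUCHL1 and 351 and 349.9 in shHSPA8, with log2 fold changes of 2.18 and 1.81. In both genes the 2 shHSPA8 libraries lay above all others. IL6 itself was at 71.04 and 71.7 CPM in shCON, 70.99 and 69.8 in shUCHL1 and 236 and 232 in shHSPA8. The 4 libraries of the other lines fell within a narrow band, and shHSPA8 was higher by 1.71 against shCON and 1.73 against shUCHL1 on the log2 scale. FGF7, a growth factor that mesenchymal cells secrete for epithelia, was at 66.7 and 55.6 CPM in shCON, 59.7 and 57.1 in shUCHL1 and 208 and 224 in shHSPA8, with log2 fold changes of 1.82 and 1.89. EGR1, an immediate early transcription factor induced through MAPK signalling, was at 26.9 and 28.5 CPM in shCON, 22.1 and 21.4 in shUCHL1 and 107 and 108 in shHSPA8. It differed from shCON by 1.95 and from shUCHL1 by 2.30 on the log2 scale, and in shUCHL1 it was below shCON (-0.35). The edgeR adjusted p-values of these 5 genes ran from 2.79e-05 to 0.000415 over both comparisons.

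**Figure D2:**
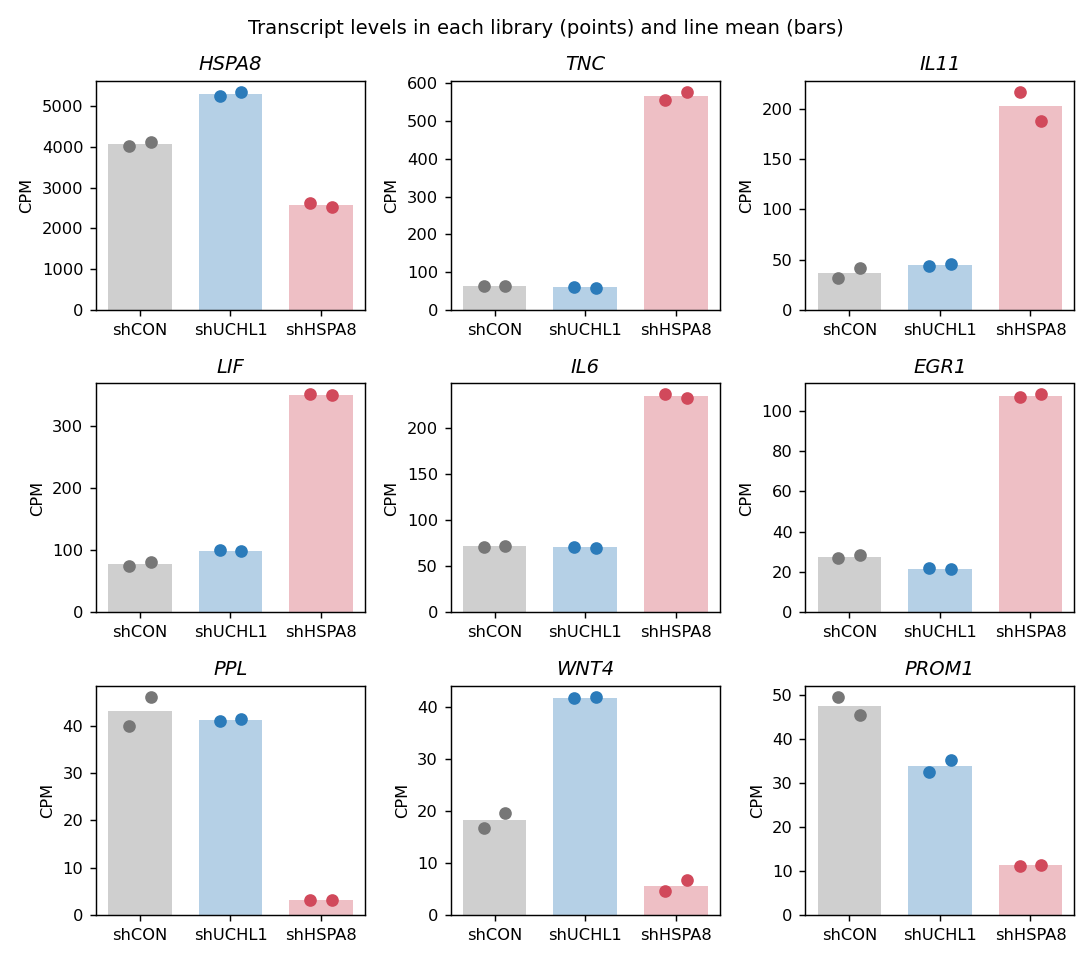
CPM (y axis, from 0, a separate scale per gene) of 9 genes in the 3 lines; points are the 2 libraries of a line and bars their mean. HSPA8, PPL, WNT4 and PROM1 are lowest in shHSPA8, and TNC, IL11, LIF, IL6 and EGR1 are highest there. All 9 are genes that stood apart, so the lack of overlap between shHSPA8 and the other lines comes with their selection.

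A further 4 genes were among those that rose furthest. RGS2, a brake on G protein signalling, was at 28.1 and 24.2 CPM in shCON, 26.9 and 30.04 in shUCHL1 and 119 and 116 in shHSPA8. CRMP1, a cytosolic protein of semaphorin signalling, was at 1.71 and 1.53 CPM in shCON, 2.81 and 1.92 in shUCHL1 and 13.1 and 10.7 in shHSPA8. Both were above every library of both other lines. CPPED1, a protein phosphatase, was at 2.91 and 2.94 CPM in shCON, 4.28 and 3.36 in shUCHL1 and 14.9 and 19.5 in shHSPA8, and PLXDC2, a transmembrane protein with a plexin domain, was at 1.899 and 1.47 CPM in shCON, 3.299 and 2.64 in shUCHL1 and 12.4 and 13.5 in shHSPA8. The smaller of the 2 log2 fold changes of these genes was between 2.04 in RGS2 and 2.33 in CRMP1. The 12 rising genes named so far, IL6 included, stood apart in every fit that left out 1 library.

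Genes that fell furthest below both other lines included structural, signalling and surface proteins. Periplakin (PPL), which links intermediate filaments to the cell edge, was at 39.95 and 46.1 CPM in shCON, 41.1 and 41.5 in shUCHL1 and 3.098 and 3.103 in shHSPA8. The 4 libraries of the other lines lay close together, far above the matching pair of shHSPA8 libraries, with log2 fold changes of -3.79 (SE 0.14) against shCON and -3.73 (SE 0.14) against shUCHL1 (edgeR adjusted p = 2.29e-05 and 5.37e-05). WNT4, a WNT ligand of the developing gonad, was at 16.7 and 19.7 CPM in shCON, 41.7 and 42.03 in shUCHL1 and 4.61 and 6.66 in shHSPA8. Here the 3 lines were all separate: shUCHL1 was above shCON (1.20 on the log2 scale) and shHSPA8 below it (-1.69, SE 0.18), with a difference between the knockdown lines of -2.89. PROM1 (CD133), a glycoprotein of membrane protrusions, was at 49.5 and 45.4 CPM in shCON, 32.6 and 35.3 in shUCHL1 and 11.1 and 11.4 in shHSPA8, with log2 fold changes of -2.08 against shCON and -1.59 against shUCHL1. SEPW1 (selenoprotein W), a small redox protein, was at 118 and 163 CPM in shCON, 117 and 116 in shUCHL1 and 36.5 and 32.002 in shHSPA8. In SEPW1 the shCON libraries differed widely from each other, yet both lay above the shHSPA8 libraries (log2 fold change -2.04, SE 0.16).

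CEP72, a centrosomal protein, was at 16.3 and 16.8 CPM in shCON, 17.05 and 14.99 in shUCHL1 and 3.603 and 4.46 in shHSPA8. SMOC2, a matricellular calcium-binding protein, was at 9.62 and 11.4 CPM in shCON, 11.1 and 11.3 in shUCHL1 and 1.896 and 2.72 in shHSPA8. The 2 genes showed the same pattern, with 4 libraries of the other lines close together and shHSPA8 below them by -2.04 and -2.19 on the log2 scale against shCON. CAPN5, a calpain protease, was at 22.4 and 24.1 CPM in shCON, 18.8 and 18.5 in shUCHL1 and 6.13 and 5.75 in shHSPA8, ISLR2, a leucine-rich repeat membrane protein, at 10.8 and 13.2 CPM in shCON, 8.003 and 9.95 in shUCHL1 and 2.72 and 2.52 in shHSPA8, and SH3YL1, a phosphoinositide-binding adaptor, at 5.95 and 7.101 CPM in shCON, 6.598 and 6.42 in shUCHL1 and 2.47 and 2.13 in shHSPA8. These 9 genes stood apart in every fit that left out 1 library. The last 3 of the 12 did not. SPON2, a secreted matrix protein, was at 14.2 and 20.9 CPM in shCON, 14.8 and 16.8 in shUCHL1 and 6.64 and 4.53 in shHSPA8 and was not called against shUCHL1 without either shUCHL1 library. LBH, a transcription cofactor, was at 8.61 and 9.49 CPM in shCON, 10.1 and 9.29 in shUCHL1 and 4.43 and 3.17 in shHSPA8 and lost that call without shUCHL1 replicate 1. KANK4, of the KANK scaffold family, was at 21.6 and 18.4 CPM in shCON, 5.74 and 4.38 in shUCHL1 and 1.77 and 2.65 in shHSPA8 and lost it without either shUCHL1 library or shHSPA8 replicate 1.

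**Figure D3:**
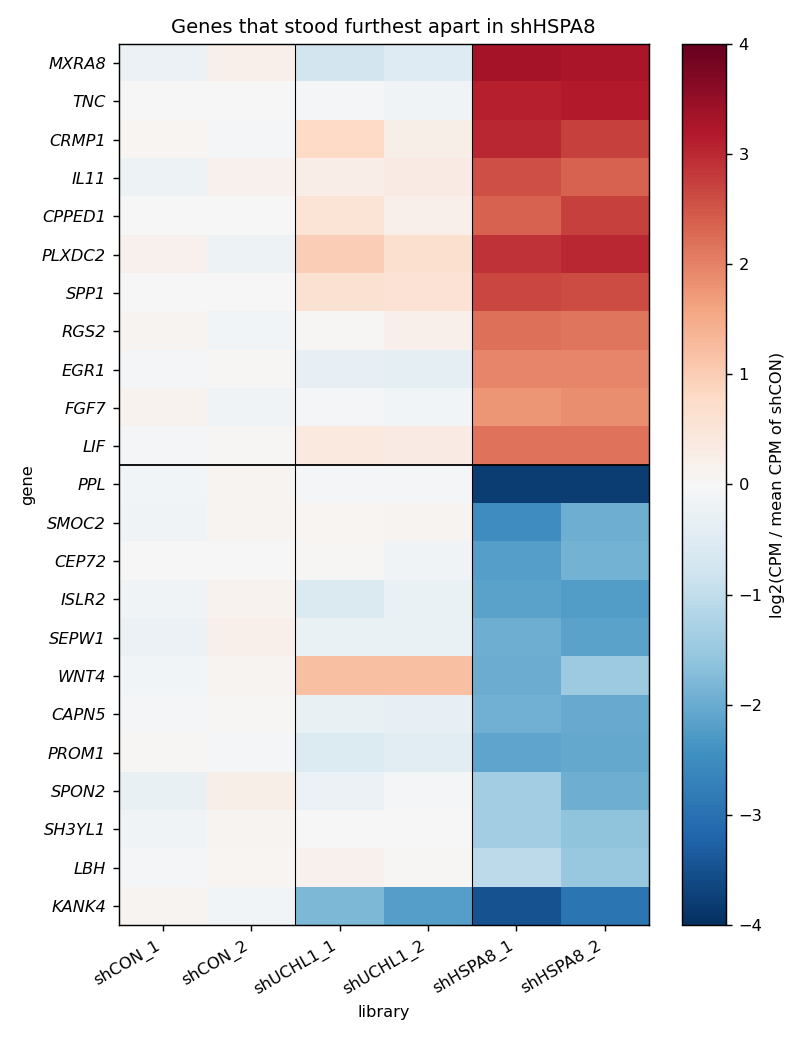
Level of 11 of the highest and of the 12 lowest genes that stood apart (y axis) in each of the 6 libraries (x axis), as log2 of the CPM over the shCON mean, from blue (lower) to red (higher). The 2 shHSPA8 columns are the darkest in nearly all genes, and WNT4 is red in shUCHL1 and blue in shHSPA8.

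Inflammatory genes rose broadly. Of 33 tested members of the list of inflammatory cytokines, chemokines and NF-kB targets, 23 were higher and 1, IL18, was lower against shCON (a call lost without shHSPA8 replicate 2), beside 8.66% and 6.02% of all genes. The median log2 fold change was 1.17. Against shUCHL1, 13 were higher and 4 lower, beside 8.35% and 6.2% of all genes. Of the 33, 13 stood apart, all higher (3.52% of all genes did so). In shUCHL1 against shCON, 19 of the members were higher and 3 lower, beside 8.54% and 7.15% of all genes, with a median of 0.82. The count that stood apart was 8 without either shUCHL1 library, 9 without shHSPA8 replicate 1 and 11 without shHSPA8 replicate 2, and 7 members were stable.

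Within this list, the cytokines IL6, IL11 and LIF described above were far higher in shHSPA8 than in either other line, while several other members were also raised in shUCHL1. PTGS2 (COX-2), the inducible enzyme of prostaglandin synthesis, was at 16.7 and 15.2 CPM in shCON, 105 and 106 in shUCHL1 and 214 and 253 in shHSPA8. Its libraries formed 3 steps, with log2 fold changes against shCON of 2.72 in shUCHL1 and 3.87 in shHSPA8, and a difference between the knockdown lines of 1.15 (edgeR adjusted p = 0.00141). CCL20, a chemokine that attracts CCR6-positive leukocytes, was at 51.9 and 54.7 CPM in shCON, 190.1 and 192 in shUCHL1 and 334 and 322 in shHSPA8 and showed the same order. SOD2, the mitochondrial superoxide dismutase and an NF-kB target, was at 94.7 and 94.6 CPM in shCON, 187 and 193 in shUCHL1 and 409 and 428 in shHSPA8, again in 3 steps. CSF3 (G-CSF) rested on 1 and 6 counts in the 2 shCON libraries, so no fold is given: it was at 0.0633 and 0.367 CPM in shCON, 0.794 and 0.719 in shUCHL1 and 10.7 and 9.63 in shHSPA8. The shHSPA8 libraries were thus far above the other 4. CCL20 was chosen after its values were seen.

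TNFAIP3, TLR2 and C3 were called higher than shCON in both knockdown lines. TNFAIP3 (A20), a deubiquitinase that restrains NF-kB, was at 11.6 and 14.6 CPM in shCON, 34.7 and 34.7 in shUCHL1 and 53.7 and 56.3 in shHSPA8. It rose by 2.07 against shCON, but the difference from shUCHL1 (0.66) lost its call without any 1 of the 4 knockdown libraries. TLR2, a receptor for bacterial lipopeptides, was at 1.33 and 1.41 CPM in shCON, 11.3 and 11.2 in shUCHL1 and 11.3 and 11.4 in shHSPA8: the knockdown lines had nearly the same level, both far above shCON. C3, the central complement protein, was at 31.97 and 32.9 CPM in shCON, 211 and 210.2 in shUCHL1 and 109 and 104 in shHSPA8 and was higher in shUCHL1 than in shHSPA8 (difference -0.98 on the log2 scale, called lower). C3 was chosen after its values were seen. Macrophage and leukocyte markers were sparse beside these genes. PTPRC (CD45) had at most 3 counts in any library, and CD68 lay between 2.60 and 5.04 CPM. The list's 16 markers with values summed to 501 to 507 CPM in shCON, 178 to 192 in shUCHL1 and 302 to 308 in shHSPA8. Most of this sum was LCP1, and 6 of the 16 were tested. CD14 was called higher and LCP1 lower against shCON. The sum of the 16 was thus lower in shHSPA8 than in shCON, while the median log2 fold change of the 6 tested was 0.33. Of the 6, 33.3% were called, beside 14.7% of all genes. Whether such cells contribute to the inflammatory changes was not tested.

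Genes of the extracellular matrix rose broadly, and here shHSPA8 differed from shUCHL1. Of 56 tested collagens, proteoglycans and matrix glycoproteins, 35 were higher and 4 lower against shCON, beside 8.66% and 6.02% of all genes. The median log2 fold change was 0.54. In shUCHL1 the same 56 genes had 14 higher and 11 lower calls, beside 8.54% and 7.15% of all genes, and a median of 0.10. Against shUCHL1, 30 were higher and 2 lower in shHSPA8, beside 8.35% and 6.2% of all genes. Of the 56, 23 stood apart higher and 2 lower (3.52% and 1.85% of all genes did so). The number that stood apart higher was 10 without either shUCHL1 library and 12 without either shHSPA8 library, and 9 higher and 2 lower members were stable.

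Among the basement membrane genes, COL4A1 and COL4A2, which encode the chains of the main type IV collagen and share a promoter region, moved alike. COL4A1 was at 207 and 219 CPM in shCON, 148 and 160.02 in shUCHL1 and 571 and 549 in shHSPA8, and COL4A2 at 112 and 132 CPM in shCON, 87.1 and 90.3 in shUCHL1 and 340.2 and 303 in shHSPA8. In both genes shUCHL1 was below shCON (-0.46 and -0.46 on the log2 scale) and shHSPA8 above it (1.40 and 1.40). The laminin chain gene LAMA4 was at 103 and 86.2 CPM in shCON, 138 and 131 in shUCHL1 and 292 and 319 in shHSPA8, with log2 fold changes of 1.69 against shCON and 1.18 against shUCHL1. COL15A1, a collagen of basement membrane zones, was at 61.7 and 59.4 CPM in shCON, 117 and 109.6 in shUCHL1 and 198 and 213 in shHSPA8 and formed 3 steps. COL18A1, whose fragment is endostatin, was at 0.57 and 0.367 CPM in shCON, 6.41 and 5.995 in shUCHL1 and 13.97 and 12.5 in shHSPA8. This was the largest matrix rise against shCON (4.80), but its size rests on few counts in shCON. The difference of COL18A1 from shUCHL1 (1.09) was not called without either shUCHL1 library. COL4A1, COL4A2, LAMA4 and COL15A1 were chosen after their values were seen.

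Interstitial and matricellular genes moved in both directions. COL6A3, a chain of the beaded-filament collagen VI, was at 668 and 621 CPM in shCON, 661 and 649 in shUCHL1 and 1479.5 and 1541 in shHSPA8, with log2 fold changes of 1.23 and 1.20. The shCON and shUCHL1 libraries overlapped and shHSPA8 lay above both. VCAN (versican), a large proteoglycan, was at 364 and 241 CPM in shCON, 804 and 708 in shUCHL1 and 1437 and 2062 in shHSPA8. The libraries within shCON and within shHSPA8 differed widely, and the difference from shUCHL1 (1.21) was lost without either shUCHL1 library or shHSPA8 replicate 2. SMOC1, the paralog of SMOC2, rose: it was at 3.86 and 3.37 CPM in shCON, 14.4 and 16.9 in shUCHL1 and 43.6 and 47.6 in shHSPA8. SMOC1 and SMOC2 thus moved in opposite directions in shHSPA8, by 3.66 and -2.19 against shCON. FBLN1 (fibulin-1), the other matrix gene that stood apart lower, was at 92.9 and 107 CPM in shCON, 78.7 and 79.6 in shUCHL1 and 37.9 and 35.2 in shHSPA8. COL3A1, the type III collagen gene, was at 6085 and 5638 CPM in shCON, 10208 and 10064 in shUCHL1 and 11389.5 and 12302 in shHSPA8: it rose in both knockdown lines and their difference (0.22) was not called. COL6A3 and COL3A1 were chosen after their values were seen.

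Markers of peritubular myoid cells and fibroblasts had a higher summed level in shHSPA8 than in both other lines, while their median log2 fold change against shCON was 0.16. The 25 markers, all tested, summed to 25989 to 28024 CPM in shCON, 30439.8 to 31181 in shUCHL1 and 36936 to 37438 in shHSPA8. The 60 matrix genes with values summed to 55765 to 59347 CPM in shCON, 52276 to 52391 in shUCHL1 and 76063 to 81934 in shHSPA8. In shUCHL1 the matrix sum was thus below shCON and the marker sum above it. Of the 25 markers 8 were higher and 4 lower against shCON (48% called, beside 14.7% of all genes). Among them 4 stood apart higher and 2 lower (24%, beside 5.37% of all genes), and 7 are also on the matrix list. The counts that stood apart were 1 higher and 1 lower without either shUCHL1 library, 3 and 1 without shHSPA8 replicate 1, and 2 and 1 without shHSPA8 replicate 2. Of the defining markers, ACTA2 was at 1476 and 1805 CPM in shCON, 534 and 567 in shUCHL1 and 1324 and 1150.4 in shHSPA8, DCN at 449 and 434 CPM in shCON, 907 and 947 in shUCHL1 and 844 and 802 in shHSPA8, and MYH11 lay between 1.59 and 3.23 CPM. FAP, fibroblast activation protein, was at 13.7 and 13.8 CPM in shCON, 14.4 and 14.7 in shUCHL1 and 28.6 and 26.8 in shHSPA8, and PDGFRB, a PDGF receptor of mesenchymal cells, at 119.9 and 128 CPM in shCON, 132 and 136 in shUCHL1 and 213 and 211 in shHSPA8. Both stood apart, but their differences from shUCHL1 were not called without either shUCHL1 library. In bulk RNA a change in the share of a cell type and a change in RNA per cell cannot be told apart, and the part of these markers in the matrix result was not tested.

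**Figure D4:**
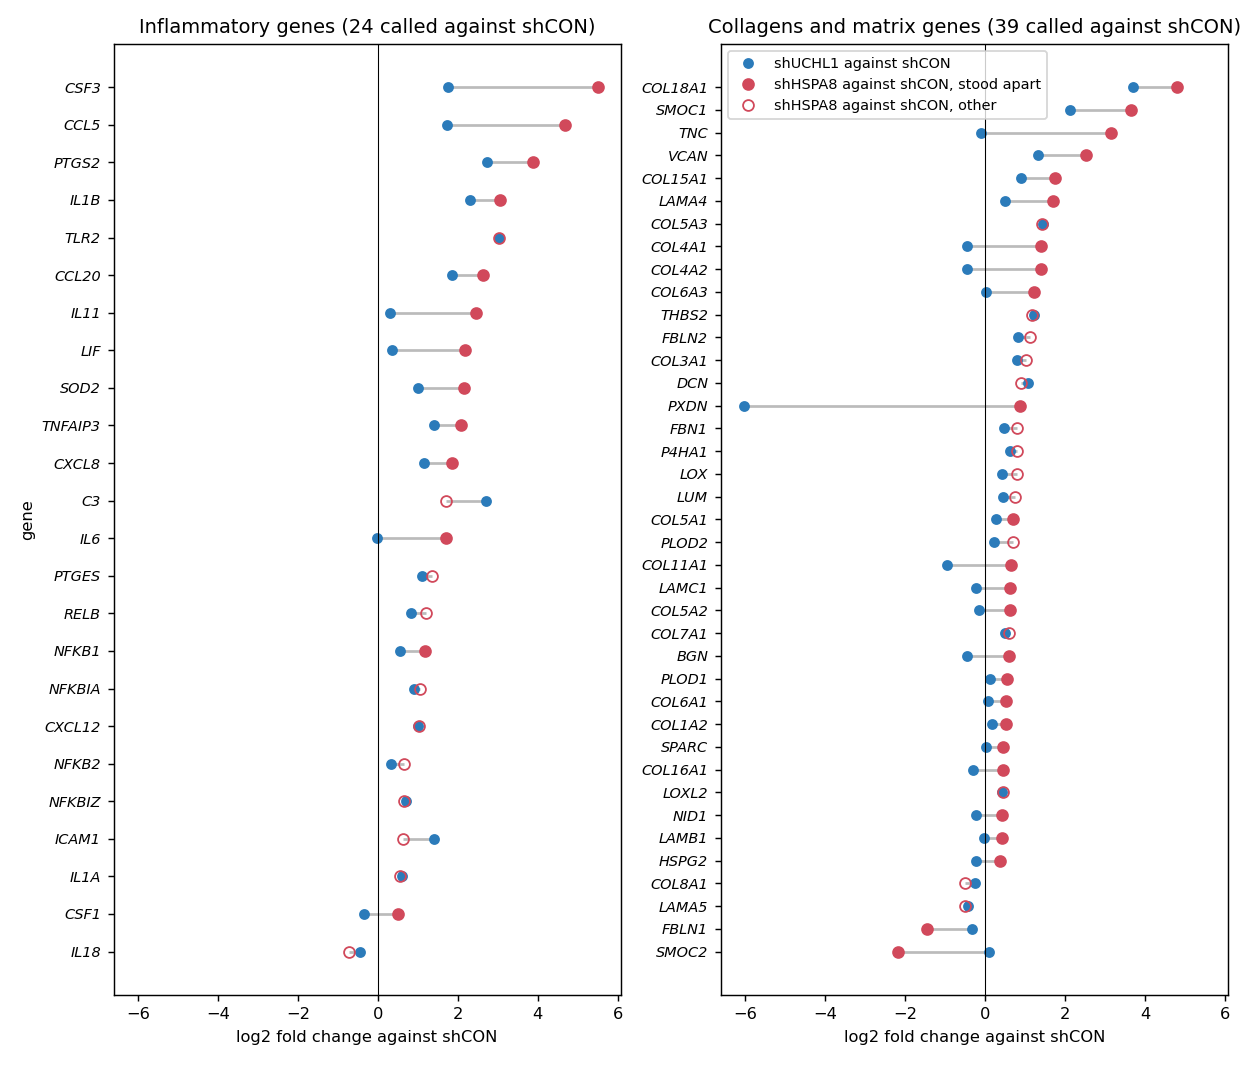
Log2 fold change against shCON (x axis) of the inflammatory genes (left, 24 genes) and the collagen and matrix genes (right, 39 genes) called in shHSPA8; blue points are shUCHL1, red filled points are shHSPA8 where the gene stood apart and red open points where it did not. IL6, IL11, TNC and COL6A3 are near 0 in shUCHL1 and far to the right in shHSPA8, while TLR2, DCN and COL3A1 lie together in the 2 knockdown lines. The changes of CSF3, CCL5, PXDN and COL18A1 rest on lines with few counts.

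Among matrix proteases and their inhibitors, 15 of 41 tested were higher and 1 lower against shCON (39%, beside 14.7% of all genes). The median log2 fold change was 0.37, and 5 stood apart higher and 1 lower (14.6%, beside 5.37% of all genes). MMP3 (stromelysin-1) was at 5.38 and 5.39 CPM in shCON, 15.3 and 15.5 in shUCHL1 and 36.1 and 36.5 in shHSPA8, in 3 steps. MMP2 (gelatinase A) was at 315 and 364 CPM in shCON, 851 and 867 in shUCHL1 and 1673 and 1550.3 in shHSPA8, also in 3 steps, and MMP14, the membrane protease that activates MMP2, was at 149.7 and 161 CPM in shCON, 156 and 168 in shUCHL1 and 303 and 298 in shHSPA8. MMP14 did not differ between the other 2 lines beyond their spread, while shHSPA8 was higher by 0.95 against shCON and 0.89 against shUCHL1 on the log2 scale. ADAM12, a membrane metalloprotease, was at 83.5 and 65.7 CPM in shCON, 89.99 and 86.7 in shUCHL1 and 212 and 254 in shHSPA8, with log2 fold changes of 1.64 and 1.40. ADAMTS14, a procollagen N-proteinase, was the member called lower: it was at 105 and 122 CPM in shCON, 116 and 119 in shUCHL1 and 63.3 and 56.2 in shHSPA8. MMP1, the interstitial collagenase, was at 0.57 and 0.49 CPM in shCON, 6.05 and 7.91 in shUCHL1 and 9.103 and 9.18 in shHSPA8: both knockdown lines were above shCON and their difference was not called. MMP2 and MMP14 were chosen after their values were seen.

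Integrins and adhesion genes gave 8 higher and 4 lower calls among 33 tested (36.4%, beside 14.7% of all genes). Of the 33, 6 stood apart, all higher (18.2%, beside 5.37% of all genes). ITGA8, an integrin chain of mesenchyme, was at 1.46 and 1.71 CPM in shCON, 1.77 and 1.68 in shUCHL1 and 5.69 and 5.495 in shHSPA8, and ITGA9, a chain whose integrin binds tenascin-C and osteopontin, at 0.127 and 0.367 CPM in shCON, 0.183 and 0.36 in shUCHL1 and 3.098 and 3.23 in shHSPA8. Both chains were above the other 4 libraries and were stable, ITGA9 on few counts in the other lines. They were chosen after their values were seen. CDH13 (T-cadherin) was at 161 and 153 CPM in shCON, 208 and 204 in shUCHL1 and 313 and 312 in shHSPA8, but its difference from shUCHL1 (0.60) was not called without either shUCHL1 library. NCAM1 was at 22.1 and 22.3 CPM in shCON, 18.02 and 19.5 in shUCHL1 and 33.9 and 37.6 in shHSPA8 and lost its call against shCON without shHSPA8 replicate 2 and its call against shUCHL1 without shUCHL1 replicate 1. ITGA1 was at 53.8 and 37.5 CPM in shCON, 45.1 and 39.6 in shUCHL1 and 78.1 and 109 in shHSPA8, with widely spread shHSPA8 libraries, and was not called against shCON without shHSPA8 replicate 2. It lost its call against shUCHL1 without either shUCHL1 library or shHSPA8 replicate 2. The number of adhesion genes that stood apart was 2 or 3 without a shUCHL1 library, 3 without shHSPA8 replicate 2 and 5 without shHSPA8 replicate 1. Without shHSPA8 replicate 2, 5 were called higher against shCON, and without shHSPA8 replicate 1, 2 were called lower.

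Growth factors and receptors known from the stem cell niche had 17 higher and 4 lower calls among 41 tested (51.2%, beside 14.7% of all genes). The median log2 fold change was 0.41, and 9 members stood apart, all higher (22.0%, beside 5.37% of all genes). Beside LIF and FGF7, the ligand HGF, a growth factor from mesenchyme that acts on MET, was at 13.8 and 9.86 CPM in shCON, 17.5 and 17.6 in shUCHL1 and 33.6 and 46.4 in shHSPA8. It rose by 1.76 against shCON, and its difference from shUCHL1 (1.19) was not called without either shUCHL1 library. IGFBP2 and IGFBP3, secreted proteins that bind insulin-like growth factors, showed lines in different orders. IGFBP2 was at 36.3 and 49.4 CPM in shCON, 2.75 and 2.698 in shUCHL1 and 10.6 and 10.2 in shHSPA8, so that shHSPA8 lay between the other lines. IGFBP3 was at 2.03 and 2.14 CPM in shCON, 18.2 and 15.7 in shUCHL1 and 10.9 and 9.504 in shHSPA8, with shUCHL1 highest, although this difference lost its call without any 1 of the 4 knockdown libraries. IGFBP5 was at 114 and 129 CPM in shCON, 246 and 246 in shUCHL1 and 248 and 244 in shHSPA8, equal in the knockdown lines. The count that stood apart fell to 3 without shUCHL1 replicate 1, 5 without shUCHL1 replicate 2 and 6 without shHSPA8 replicate 1, and LIF and FGF7 were the stable members. Without shHSPA8 replicate 1 or either shUCHL1 library, 2 were called lower against shCON.

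Immediate early genes and feedback regulators of MAPK signalling had 11 higher and 3 lower calls among 36 tested (38.9%, beside 14.7% of all genes). The median log2 fold change was 0.18, and 9 stood apart higher and 2 lower (30.6%, beside 5.37% of all genes). Beside EGR1, the nuclear receptor NR4A1, also an immediate early gene, was at 4.18 and 5.08 CPM in shCON, 3.48 and 3.66 in shUCHL1 and 15.9 and 15.5 in shHSPA8. NR4A1 was higher by 1.76 against shCON and 2.14 against shUCHL1 on the log2 scale. NR4A3 was at 3.55 and 3.12 CPM in shCON, 5.44 and 3.78 in shUCHL1 and 10.8 and 11.8 in shHSPA8, and its difference from shUCHL1 was not called without shUCHL1 replicate 2. FOS was at 5.45 and 4.53 CPM in shCON, 9.04 and 8.33 in shUCHL1 and 13.8 and 13.7 in shHSPA8, with a difference from shUCHL1 (0.66) that lost its call without any 1 of the 4 knockdown libraries. DUSP6, a phosphatase that switches off ERK and a known readout of its activity, was at 36.5 and 34.1 CPM in shCON, 28.6 and 28.1 in shUCHL1 and 56.6 and 52.8 in shHSPA8 and was the third stable member with EGR1 and NR4A1. DUSP6 was chosen after its values were seen. Not all immediate early genes rose. ATF3, a stress-induced transcription factor, was at 17.1 and 20.3 CPM in shCON, 27.2 and 24.3 in shUCHL1 and 10.7 and 9.63 in shHSPA8, lower than both other lines, although the call against shCON was lost without shHSPA8 replicate 2. KLF4, a zinc finger factor of pluripotency, was at 23.1 and 21.4 CPM in shCON, 64.1 and 59.4 in shUCHL1 and 15.2 and 14.7 in shHSPA8. Its difference from shUCHL1 was -2.05, while that from shCON (-0.57) was not called without either shHSPA8 library or in the fit of the 2 lines alone. The number that stood apart higher was 4 without either shUCHL1 library, 6 without shHSPA8 replicate 1 and 7 without shHSPA8 replicate 2. Of the lower members, 1 was called against shCON without shHSPA8 replicate 1 and 0 without shHSPA8 replicate 2.

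In the TGF-beta, activin and BMP list 12 members were higher and 4 lower among 41 tested (39%, beside 14.7% of all genes). The median log2 fold change was 0.06, and 14.6% stood apart, beside 5.37% of all genes. TGFBI, a secreted matrix protein named for its induction by TGF-beta, was at 685 and 792 CPM in shCON, 646 and 649 in shUCHL1 and 1633 and 1512 in shHSPA8, above both other lines by 1.09 and 1.28 on the log2 scale, and was the stable member of the 5 that stood apart higher. FST (follistatin), which binds activin, was at 199 and 205 CPM in shCON, 47.2 and 45.3 in shUCHL1 and 103 and 108 in shHSPA8: it fell against shCON and was lower still in shUCHL1. FST was chosen after its values were seen. ID3, a BMP target, was at 129.5 and 154 CPM in shCON, 154 and 157 in shUCHL1 and 237 and 214 in shHSPA8, and its call against shCON was lost without shHSPA8 replicate 1. It also lost its call against shUCHL1 without shHSPA8 replicate 1 or either shUCHL1 library. GDF6, a BMP ligand, was at 5.32 and 5.999 CPM in shCON, 6.54 and 6.95 in shUCHL1 and 2.97 and 2.39 in shHSPA8, and its call against shCON was lost without shHSPA8 replicate 2 and against shUCHL1 without either shUCHL1 library. The 5 that stood apart higher were 1 without either shUCHL1 library or shHSPA8 replicate 1 and 2 without shHSPA8 replicate 2. The number called lower against shCON was 2 without either shUCHL1 library or shHSPA8 replicate 1 and 1 without shHSPA8 replicate 2.

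WNT pathway genes were split, with 6 higher and 7 lower among 32 tested (40.6%, beside 14.7% of all genes). The median was 0.07, and 21.9% stood apart, beside 5.37% of all genes. WNT5A, the ligand of the non-canonical branch, was at 139.99 and 128 CPM in shCON, 282 and 269 in shUCHL1 and 396 and 473 in shHSPA8. WNT5A thus rose (1.70 against shCON) while WNT4 fell, and the rise of WNT5A above shUCHL1 was not called without either shUCHL1 library or shHSPA8 replicate 2. The receptors FZD1 and FZD7 also went in opposite directions. FZD1 was at 70.7 and 69.4 CPM in shCON, 81.7 and 82.5 in shUCHL1 and 132 and 135 in shHSPA8 and lost its call against shUCHL1 without either shUCHL1 library. FZD7 was at 31.02 and 31.3 CPM in shCON, 36.05 and 29.6 in shUCHL1 and 18.5 and 20.4 in shHSPA8 and lost its call against shCON without either shHSPA8 library and its call against shUCHL1 without shUCHL1 replicate 1 or shHSPA8 replicate 1. SFRP4, a secreted WNT antagonist, was at 1.899 and 2.02 CPM in shCON, 9.04 and 9.53 in shUCHL1 and 10.1 and 10.02 in shHSPA8, alike in the knockdown lines. Of 4 higher and 3 lower members that stood apart, WNT4 was the stable one. Without shHSPA8 replicate 1 or shHSPA8 replicate 2, 2 members were called lower against shCON, and 2 stood apart higher without shHSPA8 replicate 2. Without a shUCHL1 library 0 or 1 stood apart higher, and 1 or 2 stood apart lower without any 1 of the 4 knockdown libraries.

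Antioxidant genes and NRF2 targets had 7 higher and 5 lower calls among 34 tested (35.3%, beside 14.7% of all genes). The median was 0.04, and 17.6% stood apart, beside 5.37% of all genes. PRDX6, a peroxiredoxin that reduces lipid peroxides, was at 399 and 413 CPM in shCON, 453 and 469 in shUCHL1 and 978 and 930.1 in shHSPA8, with log2 fold changes of 1.23 and 1.05. GPX3, the extracellular glutathione peroxidase, was at 1.52 and 1.35 CPM in shCON, 4.46 and 4.32 in shUCHL1 and 13.4 and 12.3 in shHSPA8, in 3 steps. GPX4 was at 67.1 and 92.9 CPM in shCON, 203 and 214 in shUCHL1 and 271 and 226 in shHSPA8 and HMOX1, heme oxygenase, at 14.2 and 18.2 CPM in shCON, 31.6 and 33.1 in shUCHL1 and 38.3 and 34.98 in shHSPA8, and in neither was the difference between the knockdown lines called. The members that stood apart higher were GPX3, PRDX6 and SOD2, all stable, and 3 others stood apart lower, 0 of them without any 1 of the 4 knockdown libraries. Without shHSPA8 replicate 1, shHSPA8 replicate 2 or either shUCHL1 library, 1 member was called lower against shCON, and without shCON replicate 2 there were 11 higher and 8 lower.

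Hypoxia-inducible and glycolysis genes had 11 higher and 2 lower calls among 36 tested (36.1%, beside 14.7% of all genes). The median was 0.19, and 22.2% stood apart, beside 5.37% of all genes. The glucose transporters SLC2A1 and SLC2A3 moved apart. SLC2A1 was at 135 and 146 CPM in shCON, 245 and 252 in shUCHL1 and 375 and 394 in shHSPA8, and SLC2A3 at 32.7 and 22.3 CPM in shCON, 33.9 and 30.6 in shUCHL1 and 11.8 and 15.3 in shHSPA8. SLC2A1 lost its call against shUCHL1 without either shUCHL1 library, and SLC2A3 also without shHSPA8 replicate 1, which removed its call against shCON as well. SLC16A3, a lactate exporter, fell: it was at 122 and 150.5 CPM in shCON, 106 and 108 in shUCHL1 and 58.2 and 51.98 in shHSPA8, and lost its call against shUCHL1 without either shUCHL1 library. The 6 members that stood apart higher were 0 without either shUCHL1 library, 1 without either shHSPA8 library and 3 under scaling by library size alone. The 2 lower ones were 0 without either shUCHL1 library and 1 without shHSPA8 replicate 1. Solute carriers and amino acid transporters had 8 higher and 3 lower calls among 29 tested (37.9%, beside 14.7% of all genes). The median was 0.32, and 20.7% stood apart, beside 5.37% of all genes. SLC39A14, a zinc and iron importer, was at 145 and 132 CPM in shCON, 281 and 272 in shUCHL1 and 400.3 and 455 in shHSPA8, and its difference from shUCHL1 was not called without either shUCHL1 library. None of the 4 higher and 2 lower transporters that stood apart did so without a shUCHL1 library, and 2 stood apart higher without either shHSPA8 library. Without shHSPA8 replicate 2, 4 were called higher against shCON, and without shHSPA8 replicate 1, 1 was called lower.

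**Figure D5:**
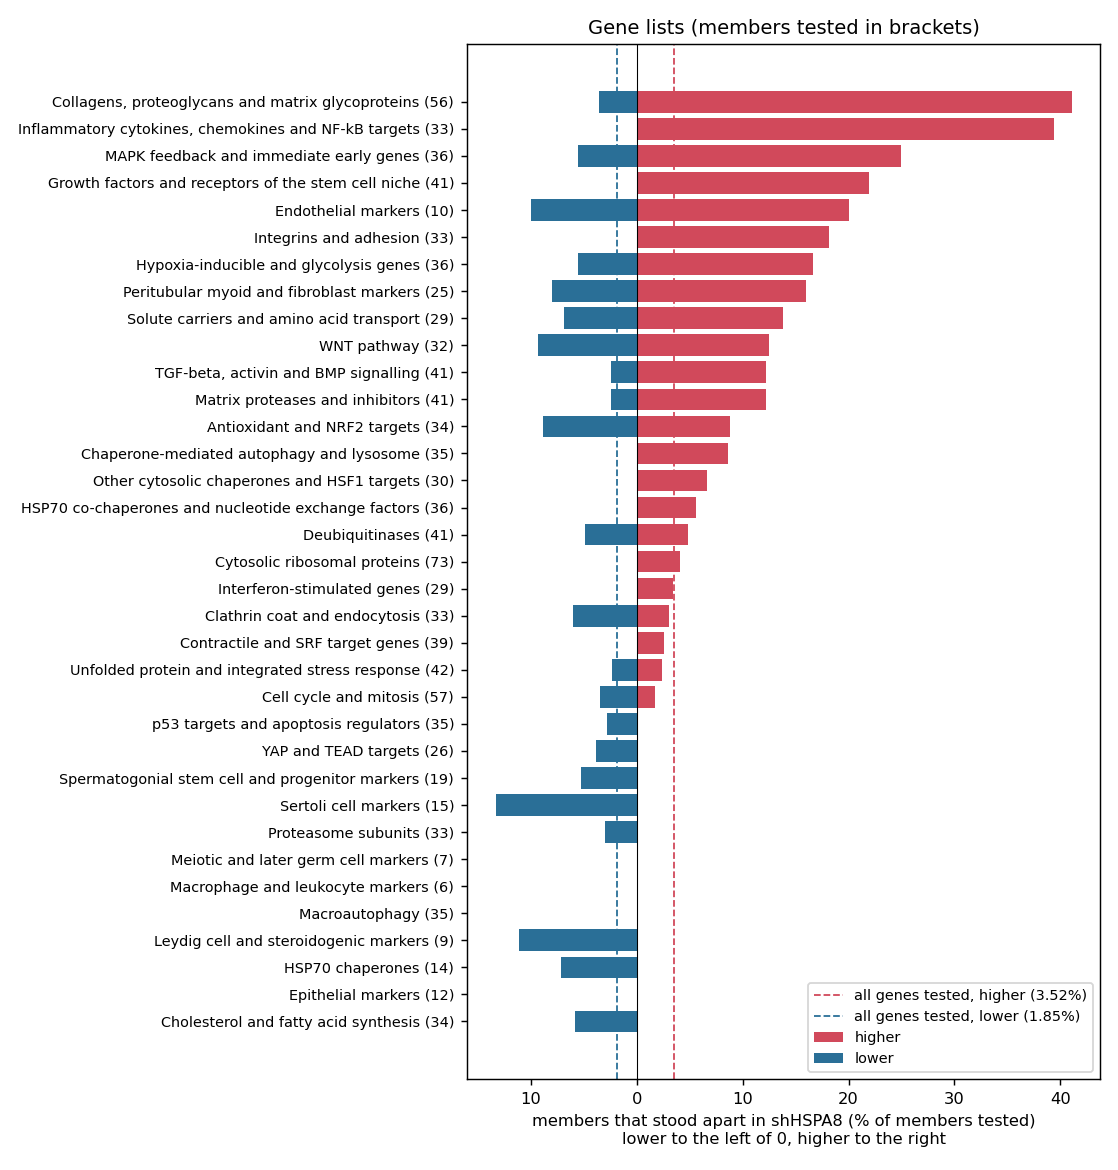
Share of the tested members of each gene list that stood apart in shHSPA8 (x axis, percent), higher to the right in red and lower to the left in blue, with the tested members in brackets; dashed lines mark all genes (3.52% higher and 1.85% lower). Matrix genes and inflammatory genes have the longest red bars, and macroautophagy and epithelial lists have none; the shares fall when 1 library is left out.

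Within the HSP70 family HSPA8 was the only member called lower against shCON. Of 14 tested HSP70 genes, 3 were higher and 1, HSPA8, lower against shCON (28.6% called, beside 14.7% of all genes), with a median log2 fold change of 0.18, and HSPA8 was the 1 that stood apart. In shUCHL1 against shCON 6 were higher and 0 lower, beside 8.54% and 7.15% of all genes. HSPA6, a heat-inducible member, was at 3.29 and 2.69 CPM in shCON, 12.7 and 13.9 in shUCHL1 and 9.92 and 8.08 in shHSPA8, a rise by 1.59 against shCON, with shUCHL1 at a level not called different. HSPH1 (HSP110), the exchange factor of HSC70, was at 271 and 229 CPM in shCON, 317 and 305 in shUCHL1 and 367 and 396 in shHSPA8, and its call was lost without shHSPA8 replicate 2. HSPA2, the testis-enriched member, was at 23.7 and 23.9 CPM in shCON, 30.5 and 29.1 in shUCHL1 and 31.9 and 32.3 in shHSPA8, and its call (log2 0.43) was lost in the fit of the 2 lines and without any 1 of 5 libraries, all but shCON replicate 2. HSPA5 (BiP), the HSP70 of the endoplasmic reticulum, was at 1332 and 1274 CPM in shCON, 2129 and 2203 in shUCHL1 and 1184 and 1163 in shHSPA8: raised in shUCHL1 but with no call in shHSPA8 (log2 -0.15, edgeR adjusted p = 0.222). HSPA9, the mitochondrial member, was at 516 and 451 CPM in shCON, 573 and 556 in shUCHL1 and 559 and 599.6 in shHSPA8 and was not called. HSPA4 was at 439 and 369 CPM in shCON, 348 and 354 in shUCHL1 and 412 and 451 in shHSPA8 and was not called. Of the HSP70 genes, 1 was called higher against shCON without shHSPA8 replicate 2. HSPA5, HSPA9 and HSPA4 were chosen after their values were seen.

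Co-chaperones of HSP70 had 3 higher calls and 1 lower among 36 tested (11.1% called, beside 14.7% of all genes), with a median of 0.06. DNAJA1, a J-domain partner of HSC70, was at 499.7 and 462 CPM in shCON, 525 and 524 in shUCHL1 and 758 and 741 in shHSPA8, up by 0.64 (SE 0.08) against shCON. Its difference from shUCHL1 (0.51) was not called without either shUCHL1 library or shHSPA8 replicate 1. DNAJB1, the J protein of the heat shock response, was at 108 and 132 CPM in shCON, 123 and 133 in shUCHL1 and 189 and 173 in shHSPA8, and both its calls were lost without either shUCHL1 library or shHSPA8 replicate 1, that against shUCHL1 also without shHSPA8 replicate 2. BAG2, which binds HSC70 and inhibits the ligase CHIP, was at 36.1 and 39.4 CPM in shCON, 30.1 and 30.6 in shUCHL1 and 25.9 and 25.02 in shHSPA8, and its fall was not called without either shHSPA8 library. Other cytosolic chaperones had 4 higher and 1 lower calls among 30 tested (16.7%, beside 14.7% of all genes) and a median of 0.05. HSP90AA1, the inducible HSP90, was at 3865 and 3479.9 CPM in shCON, 4436 and 4455 in shUCHL1 and 4811 and 4795 in shHSPA8, a log2 fold change of 0.39 that was not called without any 1 of the 4 knockdown libraries. HSPB1 (HSP27) was at 183 and 244 CPM in shCON, 209.9 and 222 in shUCHL1 and 345 and 304 in shHSPA8, and its calls were lost in the same 4 cases. HSPB6, a small heat shock protein of muscle, was at 9.05 and 11.997 CPM in shCON, 10.02 and 12.9 in shUCHL1 and 24.7 and 21.1 in shHSPA8, and kept its call against shCON in those fits but not its call against shUCHL1 without either shUCHL1 library or shHSPA8 replicate 1. With 1 knockdown library left out, 1 or 2 co-chaperones and 1 other chaperone were called higher against shCON. Without shCON replicate 2 these counts were 5 and 7, and scaling by library size left 1 member of each of these lists that stood apart.

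In the list of chaperone-mediated autophagy and lysosome genes, 7 of 35 tested were higher and 0 lower against shCON. This was 20%, beside 14.7% of all genes. The median log2 fold change was 0.18, and 8.57% stood apart, beside 5.37% of all genes. The 3 members that stood apart were all stable. CTSK (cathepsin K), a collagen-degrading protease, was at 11.3 and 9.73 CPM in shCON, 16.4 and 15.9 in shUCHL1 and 39.3 and 46.6 in shHSPA8. GM2A, the GM2 ganglioside activator, was at 56.7 and 64.9 CPM in shCON, 46.8 and 47.1 in shUCHL1 and 144 and 142 in shHSPA8, so that shUCHL1 was lower and shHSPA8 higher than shCON. NPC2, which hands cholesterol on inside the lysosome, was at 83.9 and 92.3 CPM in shCON, 98.5 and 102 in shUCHL1 and 207 and 189 in shHSPA8. All 3 were above the other 4 libraries in both shHSPA8 libraries, by 2.03, 1.24 and 1.17 on the log2 scale against shCON. CTSL and GLB1 rose in both knockdown lines: CTSL was at 2.98 and 4.71 CPM in shCON, 14.7 and 14.9 in shUCHL1 and 11.7 and 11.7 in shHSPA8, and GLB1, lysosomal beta-galactosidase, at 56.98 and 68.9 CPM in shCON, 105 and 107 in shUCHL1 and 106 and 102 in shHSPA8. LAMP2, the gene of the receptor of this route, was at 307 and 272 CPM in shCON, 317 and 309 in shUCHL1 and 312 and 354 in shHSPA8 and was not called (log2 0.20, edgeR adjusted p = 0.231). LAMP2 was chosen after its values were seen, and the table does not separate its isoforms. Without shCON replicate 2, 11 members were called higher.

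Macroautophagy genes gave 1 higher and 1 lower call among 35 tested, WIPI1 and OPTN (5.71% called, beside 14.7% of all genes). On this list 0 members stood apart. WIPI1 was at 14.8 and 16.3 CPM in shCON, 21.7 and 20.8 in shUCHL1 and 21.1 and 21.9 in shHSPA8 and OPTN, a receptor of selective autophagy, at 197 and 184 CPM in shCON, 139 and 142 in shUCHL1 and 146 and 140.4 in shHSPA8. Both calls were lost without any 1 of the 4 knockdown libraries, that of WIPI1 also without shCON replicate 1. Of 33 tested genes of the clathrin coat and endocytosis, 2 were higher and 4 lower (18.2% called, beside 14.7% of all genes). The median was -0.07. The caveolae genes CAV1 and CAV2 fell: CAV1 was at 138 and 131 CPM in shCON, 131 and 128 in shUCHL1 and 77.9 and 87.5 in shHSPA8, and CAV2 at 96.7 and 85.02 CPM in shCON, 83.3 and 82.4 in shUCHL1 and 54.2 and 60.4 in shHSPA8. Their differences from shUCHL1 were not called without either shUCHL1 library or shHSPA8 replicate 1, nor that of CAV2 without shHSPA8 replicate 2, and CAV2 lost its call against shCON without shHSPA8 replicate 1. SNX9, a sorting nexin that works with dynamin, was at 79.7 and 75.5 CPM in shCON, 73.3 and 70.99 in shUCHL1 and 105 and 111 in shHSPA8 and was not called against shCON without any 1 of the 4 knockdown libraries. It also lost its call against shUCHL1 without either shUCHL1 library or shHSPA8 replicate 2. DAB2, a clathrin adaptor, was at 202 and 170.5 CPM in shCON, 112 and 110.3 in shUCHL1 and 92.7 and 105 in shHSPA8, lower in both knockdown lines. CLTC, the clathrin heavy chain gene, was at 844 and 635 CPM in shCON, 734 and 706 in shUCHL1 and 622 and 770.2 in shHSPA8 and was not called (log2 -0.09). CLTC was chosen after its values were seen. Without any 1 of the 4 knockdown libraries, 0 endocytosis genes were called higher, 2 or 3 lower, and 0 or 1 stood apart.

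Among proteasome subunits, which form the protease for ubiquitin-tagged proteins, 6.06% were called against shCON, and among deubiquitinases, which remove the tag, 12.2%, beside 14.7% of all genes. Among 33 subunits 0 were higher and 2 lower, with a median of -0.09, and without any 1 of the 4 knockdown libraries 0 were called. PSMA5 was at 174 and 173 CPM in shCON, 167 and 175 in shUCHL1 and 136 and 138 in shHSPA8 and PSMA1 at 244 and 242 CPM in shCON, 205 and 211 in shUCHL1 and 188 and 176 in shHSPA8, lower than in shCON by -0.34 and -0.41 on the log2 scale. Among 41 deubiquitinases 2 were higher and 3 lower, and 4 stood apart (9.76%, beside 5.37% of all genes). UCHL5, a proteasome-bound relative of UCHL1, was at 58.8 and 53.4 CPM in shCON, 49.4 and 51.6 in shUCHL1 and 80.7 and 77.3 in shHSPA8, and its rise against shCON was lost without any 1 of the 4 knockdown libraries, and that against shUCHL1 without either shUCHL1 library or shHSPA8 replicate 1. USP14, another such enzyme on the proteasome, was at 155 and 132 CPM in shCON, 123 and 125 in shUCHL1 and 97.9 and 105 in shHSPA8. Its fall against shCON was lost without any 1 of the 4 knockdown libraries. OTUB2 was at 15.4 and 17.4 CPM in shCON, 17.2 and 17.1 in shUCHL1 and 10.1 and 9.37 in shHSPA8 and lost its call against shCON without shHSPA8 replicate 2, and that against shUCHL1 without either shUCHL1 library or shHSPA8 replicate 2. Without any 1 of the 4 knockdown libraries, 1 deubiquitinase was called higher, TNFAIP3, and 0 or 1 lower.

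Genes of sterol synthesis fell against shCON in both knockdown lines. Both comparisons with shCON use the same control libraries, so each is given only by its own values. Of 34 tested genes of cholesterol and fatty acid synthesis, 24 were lower and 0 higher in shHSPA8 (70.6%, beside 14.7% of all genes). The median log2 fold change was -0.58. In shUCHL1, 25 were lower and 0 higher, beside 7.15% and 8.54% of all genes, with a median of -0.56. Between the knockdown lines, 4 were higher and 2 lower (8.35% and 6.2% of all genes were), with a median of -0.05. HMGCS1, which makes the precursor of mevalonate, was at 508 and 413 CPM in shCON, 263 and 258 in shUCHL1 and 201 and 211 in shHSPA8, and ACSS2, which makes acetyl-CoA from acetate, at 10.8 and 11.8 CPM in shCON, 5.25 and 6.48 in shUCHL1 and 3.86 and 3.88 in shHSPA8. In both the knockdown lines lay below shCON and did not differ by the test. INSIG1, which holds back the SREBP factors, was at 39.4 and 42.5 CPM in shCON, 28.4 and 29.1 in shUCHL1 and 17.3 and 18.1 in shHSPA8, lowest in shHSPA8, but this difference was not called without either shUCHL1 library or shHSPA8 replicate 1. HSD17B7 was at 21.5 and 17.8 CPM in shCON, 12.9 and 12.3 in shUCHL1 and 7.02 and 8.99 in shHSPA8, and its difference from shUCHL1 lost its call without any 1 of the 4 knockdown libraries. The number lower against shCON was 13 without either shHSPA8 library and 18 in the fit of the 2 lines alone. The 2 that stood apart lower were 7 under scaling by library size alone or without either shCON library.

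Genes of the unfolded protein and integrated stress response had 12 higher and 2 lower calls among 42 tested in shHSPA8 against shCON. In shUCHL1 there were 21 higher and 2 lower, beside 8.54% and 7.15% of all genes. The medians were 0.15 in shHSPA8 and 0.47 in shUCHL1. The share called in shHSPA8 was 33.3%, beside 14.7% of all genes, and 4.76% stood apart, beside 5.37%. Against shUCHL1, 1 was higher and 13 lower in shHSPA8, beside 8.35% and 6.2% of all genes. PSAT1, an enzyme of serine synthesis induced by ATF4, was at 53.9 and 49.9 CPM in shCON, 119 and 129 in shUCHL1 and 111 and 112 in shHSPA8, alike in the knockdown lines, and VLDLR, a lipoprotein receptor, was at 10.95 and 9.43 CPM in shCON, 31.7 and 33.4 in shUCHL1 and 26.4 and 27.7 in shHSPA8, with the same pattern. ATF5, an ATF4 target, was at 5.45 and 8.57 CPM in shCON, 7.76 and 8.03 in shUCHL1 and 14.3 and 12.9 in shHSPA8, but both of its calls were lost without either shHSPA8 or either shUCHL1 library. Without either shUCHL1 library or shHSPA8 replicate 2, 7 members were called higher against shCON, and without shHSPA8 replicate 1 there were 8. Those called lower were 0 without shHSPA8 replicate 2 and 1 without any 1 of the other 3 knockdown libraries.

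Contractile genes and targets of serum response factor (SRF) separated the 2 knockdown lines. In shHSPA8, 2 of 39 tested were higher and 7 lower against shCON (23.1%, beside 14.7% of all genes), with a median of -0.15. In shUCHL1 against shCON, 0 were higher and 27 lower, beside 8.54% and 7.15% of all genes, with a median of -0.57. Against shUCHL1, shHSPA8 was called higher in 23 members and lower in 0, beside 8.35% and 6.2% of all genes. MYLK, the kinase of myosin light chain, was at 57.7 and 53.4 CPM in shCON, 27.8 and 27.8 in shUCHL1 and 79.6 and 85.4 in shHSPA8. It was the member that stood apart, lower in shUCHL1 and higher in shHSPA8 than in shCON, although the call against shCON was lost without shHSPA8 replicate 2. MYOCD, the muscle cofactor of SRF, was at 35.8 and 28.9 CPM in shCON, 11.3 and 10.8 in shUCHL1 and 10.2 and 13.6 in shHSPA8 and fell in both knockdown lines. SYNPO2, an actin-binding protein, was at 13.9 and 9.24 CPM in shCON, 5.07 and 5.04 in shUCHL1 and 4.55 and 7.11 in shHSPA8, and its fall in shHSPA8 was lost without any 1 library other than shCON replicate 2 or shHSPA8 replicate 2. The count lower against shCON moved with the libraries: it was 15 without shCON replicate 1 and 3 without any 1 of the 4 knockdown libraries. Without shHSPA8 replicate 2, 1 was called higher and 0 stood apart.

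Targets of YAP and TEAD had 1 higher and 5 lower calls among 26 tested (23.1%, beside 14.7% of all genes). The median was -0.25. ANKRD1, a strong YAP target, was at 389.9 and 399 CPM in shCON, 95.5 and 86.3 in shUCHL1 and 156 and 146 in shHSPA8: it fell in both knockdown lines and less in shHSPA8, a difference that was not called without shUCHL1 replicate 2. GADD45A, a p53 and stress-induced gene on this list, was at 103 and 106 CPM in shCON, 119 and 125 in shUCHL1 and 54.6 and 53.7 in shHSPA8, and it fell below both other lines in each fit that left out 1 library. Without shCON replicate 2, 8 members were called lower. Of 35 tested p53 targets and apoptosis regulators, 3 were higher and 2 lower (14.3% called, beside 14.7% of all genes), and GADD45A was the 1 that stood apart. Without any 1 of the 4 knockdown libraries, 0 were called higher. Interferon-stimulated genes had 7 higher calls and 1 lower among 29 tested (27.6%, beside 14.7% of all genes). MX1, an antiviral GTPase, was at 17.98 and 21.4 CPM in shCON, 43.3 and 43.6 in shUCHL1 and 44.3 and 42.2 in shHSPA8, and HERC6, an ISG15 ligase of that response, at 24.5 and 21.4 CPM in shCON, 39.5 and 41.8 in shUCHL1 and 39.5 and 46.7 in shHSPA8, alike in the knockdown lines. Without either shUCHL1 library or shHSPA8 replicate 2, 4 interferon-stimulated genes were called higher.

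Cell cycle and mitosis genes had 2 higher and 8 lower calls among 57 tested (17.5% called, beside 14.7% of all genes), with a median of -0.13. CCND2 (cyclin D2) was at 6.901 and 7.47 CPM in shCON, 6.29 and 5.94 in shUCHL1 and 14.2 and 12.4 in shHSPA8: it rose against shCON by 0.89, and lost its call against shUCHL1 without either shUCHL1 library. CDKN1B (p27), an inhibitor of cyclin-dependent kinases, was at 38.9 and 31.6 CPM in shCON, 35.3 and 37.1 in shUCHL1 and 21.9 and 24.3 in shHSPA8, and KIF2C, a kinesin that depolymerises microtubules in mitosis, at 189 and 195 CPM in shCON, 191 and 196 in shUCHL1 and 157 and 156 in shHSPA8. These 2 stood apart lower, but each lost both calls without any 1 of the 4 knockdown libraries, and KIF2C that against shCON also without shCON replicate 2. CDC25B, a phosphatase that drives entry into mitosis, was at 259 and 281 CPM in shCON, 181 and 193 in shUCHL1 and 179.9 and 170.03 in shHSPA8, lower in both knockdown lines. Without any 1 of the 4 knockdown libraries, 1 cell cycle gene was called higher and 1 lower. The 73 tested cytosolic ribosomal protein genes had a median of -0.00862 and 3 higher and 4 lower calls (9.59%, beside 14.7% of all genes). These counts turned with the control libraries, to 1 higher and 13 lower without shCON replicate 1 and to 15 higher and 2 lower without shCON replicate 2. Without any 1 of the 4 knockdown libraries they were 0 or 1 in each direction. Ribosomal proteins have many near-identical copies, so their counts are uncertain.

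Other large changes against shCON were found in genes of varied function. KCNJ15, a potassium channel, was at 1.01 and 0.673 CPM in shCON, 7.45 and 7.19 in shUCHL1 and 15.7 and 15.7 in shHSPA8, and JAKMIP2, a coiled-coil protein, at 1.84 and 1.41 CPM in shCON, 9.103 and 7.61 in shUCHL1 and 16.2 and 17.8 in shHSPA8. In both shHSPA8 was above shUCHL1 too, a difference not called without either shUCHL1 library. MEDAG, an adipogenesis gene, was at 4.75 and 6.61 CPM in shCON, 58.2 and 54.1 in shUCHL1 and 73.96 and 76.1 in shHSPA8, with the knockdown lines not called different. Falls were led, after PPL and KANK4, by NIPAL4, a magnesium transporter, at 13.9 and 15.2 CPM in shCON, 2.32 and 2.098 in shUCHL1 and 2.02 and 1.42 in shHSPA8. The knockdown lines did not differ in NIPAL4 by the test. ALDH1A3, which makes retinoic acid, was at 92.3 and 81.5 CPM in shCON, 23.03 and 23.3 in shUCHL1 and 10.5 and 10.9 in shHSPA8, in 3 steps down: the log2 fold change was -3.02 (SE 0.11) against shCON and -1.12 against shUCHL1. CRABP2, which carries retinoic acid to the nucleus, was at 81.99 and 106 CPM in shCON, 27.7 and 30.6 in shUCHL1 and 19.6 and 16.5 in shHSPA8, and its difference from shUCHL1 (-0.69) was lost without any 1 of the 4 knockdown libraries. EMCN (endomucin), a sialoglycoprotein of endothelium, was at 52.3 and 49.6 CPM in shCON, 8.13 and 9.59 in shUCHL1 and 7.52 and 6.98 in shHSPA8, and EDN1 (endothelin-1), a vasoconstrictor peptide, at 45.6 and 51.97 CPM in shCON, 9.59 and 10.9 in shUCHL1 and 10.2 and 9.76 in shHSPA8. Neither was called different between the knockdown lines. FAM110C, a centrosome-associated protein, was at 20.96 and 18.4 CPM in shCON, 8.92 and 8.15 in shUCHL1 and 3.54 and 4.07 in shHSPA8 and lost its call against shUCHL1 without shUCHL1 replicate 1.

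Some genes lay on opposite sides of shCON in the 2 knockdown lines, which share these controls. Besides WNT4, TAC1, the gene of the neuropeptide substance P, was at 3.93 and 4.22 CPM in shCON, 0.855 and 1.199 in shUCHL1 and 9.99 and 10.3 in shHSPA8. KCNMB1, a subunit of the calcium-activated potassium channel of smooth muscle, was at 5.64 and 6.55 CPM in shCON, 2.26 and 2.098 in shUCHL1 and 16.6 and 17.6 in shHSPA8. In both, shUCHL1 lay below shCON and shHSPA8 above it, by 1.31 and 1.48 on the log2 scale. CELSR1, a cadherin of planar cell polarity, had the reverse order: it was at 1.71 and 1.59 CPM in shCON, 3.18 and 3.06 in shUCHL1 and 0.316 and 0.388 in shHSPA8. PXDN (peroxidasin), which cross-links collagen IV, had 5 counts in all in shUCHL1, so no fold against that line is given: it was at 8.74 and 12.2 CPM in shCON, 0.0611 and 0.24 in shUCHL1 and 19.3 and 19.01 in shHSPA8. Its rise in shHSPA8 against shCON (log2 0.87, SE 0.19) was not called without either shHSPA8 library. TAC1, KCNMB1 and CELSR1 were called in each fit that left out 1 library.

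Among markers of the labelled cell type 15.8% of those tested were called against shCON, near the 14.7% of all genes, and the share was higher in the lists of Sertoli (46.7%), endothelial (70%), epithelial (41.7%) and Leydig markers (33.3%), each of 15 or fewer tested genes. Of 44 spermatogonial stem cell and progenitor markers 27 carried values and 19 were tested: 2 were higher (ID4 and FOXO1) and 1 lower (KLF4) against shCON. ID4, an inhibitor of differentiation marking spermatogonial stem cells, was at 1.96 and 3.31 CPM in shCON, 5.804 and 6.36 in shUCHL1 and 10.2 and 8.79 in shHSPA8, and FOXO1, a stem cell factor of the germline, at 52.2 and 46.2 CPM in shCON, 69.6 and 69.9 in shUCHL1 and 84.96 and 91.6 in shHSPA8. In both genes shHSPA8 lay above shUCHL1 and shUCHL1 above shCON, but the differences between the knockdown lines were not called. The call of KLF4 was lost without either shHSPA8 library. The 27 with values summed to 4834 to 5832 CPM in shCON, 3438 to 3486 in shUCHL1 and 4076 to 4434 in shHSPA8. Of 28 meiotic and later markers 7 were tested and 1, HSPA2, was called against shCON (lost without any 1 library but shCON replicate 2), and SYCP3 had 1 count over the 6 libraries. The 19 Sertoli markers with values summed to 5370.5 to 5970.4 CPM in shCON, 4160.2 to 4217 in shUCHL1 and 4301 to 4587 in shHSPA8. Of 15 tested Sertoli markers 1 was higher and 6 lower. Without shHSPA8 replicate 2, 3 were called lower.

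SOX9, the Sertoli cell determinant that also acts in other mesenchyme, was at 76.2 and 67.6 CPM in shCON, 52.3 and 51.6 in shUCHL1 and 26.1 and 33.2 in shHSPA8. Its log2 fold change was -1.28 against shCON, and its difference from shUCHL1 was not called without either shUCHL1 library or shHSPA8 replicate 1. GATA4, a gonadal transcription factor, was at 94.6 and 112 CPM in shCON, 76.9 and 76.2 in shUCHL1 and 59.4 and 51.6 in shHSPA8, and its difference from shUCHL1 was lost without any 1 of the 4 knockdown libraries. KRT8, a simple-epithelium keratin, was at 18.3 and 21.3 CPM in shCON, 1.59 and 1.02 in shUCHL1 and 6.26 and 5.69 in shHSPA8, with shHSPA8 between the other lines. AMH lay between 0.507 and 1.26 CPM and WT1 between 4.03 and 7.22 CPM. The 15 endothelial markers with values summed to 352 to 397 CPM in shCON, 325 to 345 in shUCHL1 and 485 to 512 in shHSPA8. Of 10 tested endothelial markers 2, ERG and ENG, stood apart higher and 1 other stood apart lower (30%, beside 5.37% of all genes). Of these, 0 were stable. Against shCON, 5 of the 10 were higher and 2 lower. Fewer were called higher without either shHSPA8 library or shCON replicate 1. Without any library but shCON replicate 1, 1 was called lower. Their defining members were sparse: PECAM1 had 4 to 11 counts a library and CDH5 lay between 0.759 and 1.65 CPM. FLT1, a VEGF receptor, was at 6.71 and 6.06 CPM in shCON, 55.4 and 54.3 in shUCHL1 and 19.5 and 19.3 in shHSPA8, highest in shUCHL1. Of 12 tested epithelial markers 2 were higher and 3 lower and 0 stood apart, and CDH1 had at most 10 counts a library. The 26 with values summed to 197 to 199.8 CPM in shCON, 173 to 181 in shUCHL1 and 149 to 167 in shHSPA8. Without shHSPA8 replicate 2, 1 of them was called higher and 2 lower. Of 9 tested Leydig markers 2 were higher and 1 lower (1 higher without shHSPA8 replicate 1, 0 lower without shHSPA8 replicate 2), and STAR lay between 0.855 and 1.45 CPM. Whether cells of these kinds contribute to the changes above was not tested.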

How the data were processed

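RNA of 3 lines (shCON, shUCHL1 and shHSPA8, 2 libraries each) was sequenced by the authors from 1.3 ug of total RNA with a SMARTER mRNA-seq kit, per the labels. The submitters' processing notes name Trimmomatic 0.36. The aligner, counter, genome build and strandedness were not given in the sources used here. The authors deposited 1 table with expected counts and FPKM per library, and log2 ratios and p-values for each comparison. Of 33229 entries, 16599 carried values and 16630 were blank, and 0 columns of per-sample values were left unused. All 16599 gene identifiers matched the RefSeq table of ARS1.2, which was used for names only.

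Expected counts as deposited by the authors were rounded to whole numbers. The deposited FPKM values served only to derive transcript lengths, and the authors' log2 ratios and p-values are printed for HSPA8 only. The main test was edgeR 4.0.16 (R 4.3.3): filterByExpr, TMM, quasi-likelihood F test with line as the only term over all 6 libraries, and Benjamini-Hochberg adjustment over 12665 genes at 0.05. SE is the log2 fold change divided by the root of F. On simulated data over 12237 genes, edgeR recovered 21 of 67 genes given a 1.5-fold change in shHSPA8. It recovered 56 of 67 at 2-fold and 63 of 66 at 4-fold, and called 11 unchanged genes. In the real data the spread differed between lines. The chi-square per degree of freedom between the libraries of a line was 22.7 in shCON, 12.1 in shHSPA8 and 2.39 in shUCHL1. How far the simulated rates of missed and false calls carry over to such unequal spread was not tested.

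Gene lists and members were chosen with earlier results of these data known. Named genes are HSPA8 and UCHL1, the 8 largest rises and falls against shCON, the 12 highest and 12 lowest that stood apart (both with at least 5 CPM and without overlap of libraries), up to 3 members of each list that stood apart and up to 2 others called, and genes called oppositely in the 2 knockdown lines. A gene these rules name is not reported here. Any other gene is marked as chosen after its values were seen. Lists had no test. Alternatives used DESeq2 1.42.0, limma 3.58.1, other scalings, no filter, fewer libraries, a length offset and a replicate block.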

Additional observations from a re-analysis of the deposited data

How the results depend on the processing

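The fall of HSPA8 kept its call in every alternative, with log2 fold changes of -0.692 to -0.628 against shCON and -1.14 to -1.01 against shUCHL1. Counts with DESeq2, RLE scaling and no low-count filter stayed within 1.5 times of those given, as did those with library-size scaling except for genes lower than shUCHL1 (1339 for 785) and genes that stood apart lower (362 for 234). Library-size scaling moved the median log2 difference from shUCHL1 to -0.119. Against shCON, the fits of 2 lines alone called 725 genes higher and 379 lower, and voom with weights 697 and 435. Against shUCHL1 the counts were 1740 and 1376 with 2 lines and 1925 and 1531 with voom, above the 1058 and 785 of the 6 libraries. A length offset gave 1163 lower against shCON, 1593 higher and 1186 lower against shUCHL1, and 684 and 428 that stood apart. A limit of 1.5-fold in both comparisons left 145 that stood apart lower.

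Leaving out 1 library in turn gave 626 to 1334 higher and 270 to 1082 lower against shCON, 180 to 1745 and 77 to 1356 against shUCHL1, and 120 to 677 and 39 to 432 that stood apart. Of the named genes, 45 of 157 calls against shCON and 58 of 110 against shUCHL1 were lost without at least 1 library. A lone library of a line is assumed to vary like the others. The cause of these shifts was not tested.

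The replicate numbers do not mark a stated pairing: deviations of same-numbered libraries correlated at -0.679 (shCON with shHSPA8), 0.337 (shCON with shUCHL1) and -0.336 (shUCHL1 with shHSPA8) over 12665 genes. With the replicate number as a block, edgeR called 384 lower against shCON, 558 higher and 365 lower against shUCHL1, and 277 and 98 that stood apart. The crossed pairing of shHSPA8, chosen after seeing the data, called 2049 and 1834, 2288 and 2165, and 1057 and 796 in the same order.

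With 2 libraries a line, changes near 1.5-fold were mostly missed in simulated data, so an absent call does not show an unchanged gene. Transcript lengths of genes that stood apart (median 2710 bases higher, 2760 lower) were near that of all genes (2490).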
